A study of Mus musculus with 18 samples.

Results

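MYC binding regions inside protein-coding genes and away from every gene end were described in mouse liver tumours that differ in the dose of Arid1a. Overlapping peaks of the 9 MYC lists were merged into 4775 regions, and a region was kept when its summit lay inside the RefSeq span of a protein-coding gene and more than 1 kb from both ends of every gene of any biotype. This left 1121 regions, 23.5% of all, and 675 without WT replicate 3. The summit is the median of the summits of the merged peaks, and the choice used position only, not peak height or genotype. Regions at protein-coding gene ends, with their summit no more than 1 kb from one (2926), and regions between genes (478) served for comparison, and 250 regions lay at ends of noncoding genes only.

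The tumours came from FVB mice in which the liver-driven transactivator LAP-tta switches on TRE-MYC once doxycycline is withdrawn, and every group carried this MYC pair. Homo tumours had both Arid1a alleles floxed (Arid1afl/fl) together with Alb-cre and came from mice about 100 days old. Het tumours had 1 floxed allele (Arid1afl/+) with Alb-cre at about 70 days, and WT tumours had both alleles floxed (Arid1aflfl) but no Cre at about 55 days. Tissue was taken at death and frozen, and each genotype had 3 libraries made with a MYC antibody and 3 input libraries. Alb-cre acts in hepatocytes and their precursors, so other cells of a tumour keep Arid1a. Cre and age changed together with the Arid1a genotype and cannot be told apart from it. The samples are bulk tumour, so fewer cells with MYC on a site and less MYC per cell cannot be told apart either. Peak lists hold no expression, so neither the loss of Arid1a nor the labelled tissue was checked.

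MYC is a transcription factor that binds DNA as a dimer with MAX, best at the E-box CACGTG. Most of its sites lie at promoters of active genes, and sites inside a gene can be alternative promoters, enhancers or places where MYC meets open chromatin. When MYC is very abundant, as in tumours driven by a transgene, it is found at many weaker sites as well. ARID1A is the large DNA-binding subunit of one form of the SWI/SNF complex, which moves nucleosomes and opens chromatin.

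Some of the regions lay on the start of a transcript that begins within the span of the host gene. RefSeq lists several starts for many genes, and on the chromosomes with listed starts, 290 of 1086 regions (26.7%) had their summit within 1 kb of a listed start, 176 of them within 250 bp. Only 896 of the 1086 had a host with a listed start of its own, so starts of the other hosts can be missed. In 113 regions the summit fell in the window of 300 bases around a listed start, from 250 bases before it to 50 after it. The windows below (RefSeq, GRCm38.p6, each written 5′ to 3′ on the strand of the gene) belong to 5 regions found in at least 5 libraries whose window holds the E-box, and to 1 found in 7 libraries whose window holds none. Other regions found in at least 5 libraries, in Plekha1, Rsad1, Pnkd, Prkag2 and Rassf1, also have windows without the E-box, which are not printed. Capitals mark CACGTG, and the start is base 251 of each window.
Dazap1: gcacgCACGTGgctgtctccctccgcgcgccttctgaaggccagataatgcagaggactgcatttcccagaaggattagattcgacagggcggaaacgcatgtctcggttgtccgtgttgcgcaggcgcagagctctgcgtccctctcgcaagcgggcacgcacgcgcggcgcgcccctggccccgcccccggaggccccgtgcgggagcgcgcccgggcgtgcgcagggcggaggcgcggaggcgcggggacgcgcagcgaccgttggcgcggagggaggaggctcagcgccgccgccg
Slc29a1: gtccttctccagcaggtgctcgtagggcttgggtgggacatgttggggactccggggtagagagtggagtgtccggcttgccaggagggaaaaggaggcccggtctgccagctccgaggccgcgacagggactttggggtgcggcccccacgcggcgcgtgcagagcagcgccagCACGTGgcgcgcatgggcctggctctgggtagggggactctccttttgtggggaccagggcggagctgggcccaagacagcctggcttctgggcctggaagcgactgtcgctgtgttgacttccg
Nudt9: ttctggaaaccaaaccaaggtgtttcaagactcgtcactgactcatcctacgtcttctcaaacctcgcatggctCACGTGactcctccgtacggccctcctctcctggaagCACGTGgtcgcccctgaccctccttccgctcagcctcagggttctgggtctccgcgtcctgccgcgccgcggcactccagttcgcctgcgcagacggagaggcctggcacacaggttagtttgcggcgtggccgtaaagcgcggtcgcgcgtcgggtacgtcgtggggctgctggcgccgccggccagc
Ldha: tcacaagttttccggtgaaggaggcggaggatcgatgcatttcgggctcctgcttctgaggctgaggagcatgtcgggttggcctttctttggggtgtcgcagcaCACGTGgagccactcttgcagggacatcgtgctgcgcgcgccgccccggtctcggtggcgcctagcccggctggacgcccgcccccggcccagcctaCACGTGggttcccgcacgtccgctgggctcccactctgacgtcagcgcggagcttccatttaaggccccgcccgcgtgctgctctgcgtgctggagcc
Gtf2ird2: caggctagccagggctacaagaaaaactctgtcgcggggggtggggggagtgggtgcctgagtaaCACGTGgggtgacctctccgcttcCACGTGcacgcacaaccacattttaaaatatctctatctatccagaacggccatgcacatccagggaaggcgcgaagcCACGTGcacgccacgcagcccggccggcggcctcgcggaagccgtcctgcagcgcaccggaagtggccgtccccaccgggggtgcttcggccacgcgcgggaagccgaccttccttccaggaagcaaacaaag
Cox5a: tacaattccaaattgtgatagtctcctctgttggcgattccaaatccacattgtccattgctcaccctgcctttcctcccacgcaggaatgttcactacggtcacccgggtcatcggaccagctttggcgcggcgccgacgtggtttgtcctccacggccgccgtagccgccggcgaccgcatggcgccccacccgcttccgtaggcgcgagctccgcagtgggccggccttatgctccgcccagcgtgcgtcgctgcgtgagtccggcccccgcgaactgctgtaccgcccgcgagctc

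The Dazap1 window (chr10:80264764-80265063, plus strand) holds 1 E-box at base 6, and the summit of the region lay at base 21. The Slc29a1 window (chr17:45595197-45595496, minus strand) holds 1 at base 176, with the summit at base 157. The Nudt9 window (chr5:104046614-104046913, plus strand) holds 2, at bases 75 and 112, with the summit at base 135. The Ldha window (chr7:46845554-46845853, plus strand) holds 2, at bases 106 and 203, with the summit at base 217. In Gtf2ird2 (chr5:134183788-134184087, plus strand) the window holds 3, the first at base 66, and the summit lay 5.5 bases from the centre of the nearest. The Cox5a window (chr9:57520982-57521281, plus strand) has its summit at base 188 and holds neither CACGTG nor CACGCG on either strand. The 6 windows were chosen after their values were seen, so the closeness of summit and E-box in them is an illustration.

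Over all 113 windows, 29 held CACGTG (25.7%, exact 95% interval 17.9% to 34.7%). The motif reads the same on both strands. It was present in 7.15% of all 32851 listed windows and in 6.14% of the 3549 windows whose start lies inside a protein-coding gene off every end. The share was 37.7% (20 of 53, 24.8% to 52.1%) in regions found in at least 2 libraries and 47.4% (9 of 19, 24.4% to 71.1%) in those found in at least 4. At gene ends 314 of 1198 windows under a summit held it (26.2%, 23.7% to 28.8%). Over regions of any library, the shares inside genes and at gene ends thus differed by less than their intervals. Among gene-end regions found in at least 2 libraries the share was 34.6% (199 of 575, 30.7% to 38.7%). Without WT replicate 3 the share inside genes was 36.7%. In the 29 windows the summit lay a median of 29.5 bases from the centre of the nearest E-box, and 19 lay within 50 bases. The variant CACGCG, read on both strands, was in 49.6% of the windows inside genes, in 42.3% of those at gene ends and in 9.27% of all. Windows under a summit inside genes had a median of 29 CG pairs, compared with 7 over all listed windows, and the part of this CG content in the motif shares was not tested. A match of letters is a description and not a measured binding site.

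**Figure D1:**
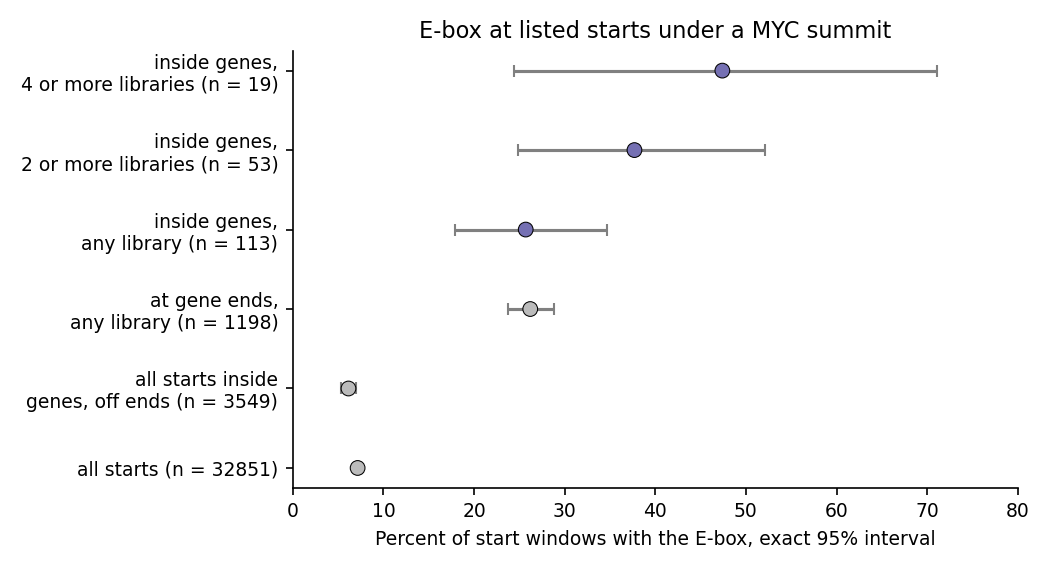
Percent of 300-base windows around listed transcript starts that contain the E-box (x axis), for windows under a MYC summit inside genes, under a summit at gene ends, and for all listed starts (rows, with the number of windows). Points are shares and bars exact 95% intervals: 25.7% of the windows inside genes had it, 26.2% of those at gene ends and 7.15% of all. Gene-end windows are shown for regions of any library only. Among those found in at least 2 libraries the gene-end share was 34.6%.

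Most internal starts had no region inside genes near them. Of the 3549 listed starts inside a protein-coding gene and off every end, 301 (8.48%) had the summit of such a region within 1 kb. Summits of gene-end regions were not counted here, and the same share was not taken for other listed starts.

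Sequence inside protein-coding genes and more than 1 kb from every end made up 35.5% of the chromosomes used (966.9 Mb), so the 23.5% of regions there fell below the share of sequence. The density was 1.16 regions per Mb inside genes, compared with 36.9 per Mb at protein-coding gene ends and 0.30 per Mb between genes. The median distance to the nearest end was 5639 bp, 271 regions lay within 2 kb, and 64 (5.71%) lay more than 50 kb away. Only long genes offer sequence far from an end. The share of inner sequence at each distance was not taken, so these counts show no preference for ends. The nearest regions found in at least 2 libraries were in Nfe2l2, the regulator of the oxidative stress response, at 1002 bp, Memo1 at 1017.5 bp and the splicing factor gene Srsf1 at 1024 bp. Just outside the limit were regions at Syde2 (983 bp), Plin3 (977 bp), and Xpo7 and Dok2 (973 bp). The farthest of those found in at least 2 libraries were in Pde4d, a cyclic AMP phosphodiesterase gene, at 195059 bp, in Opcml, a cell adhesion gene, at 144751 bp and in Nkain2 at 139307 bp. All 3 of these genes span more than a megabase.

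The regions leaned to the 5′ side of their hosts. Strand was known for 896 of the 1086 regions on chromosomes with listed starts (82.5%), and 601 of them (67.1%) lay nearer the 5′ end than the 3′ end of the host. The first 10% of the span held 202 regions and the last 10% held 31. Among regions found in at least 2 libraries the 5′ share was 69.3% (291 of 420), and among those in at least 6 it was 62.3% (33 of 53). Sequence within 1 kb of either end was left out on both sides alike.

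**Figure D2:**
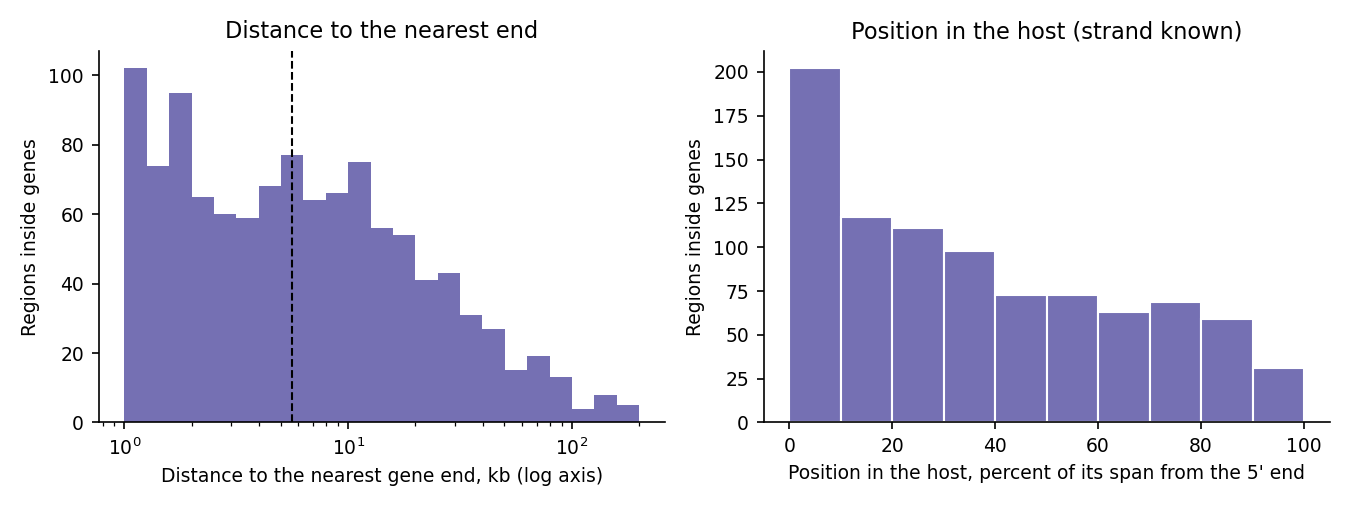
Left, number of regions inside genes (y axis) by distance to the nearest gene end in kb on a log axis, with the median of 5639 bp dashed. Right, number of regions with known strand by position in the host, in percent of its span from the 5′ end. The first bin holds 202 regions and the last 31.

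The 1121 regions had 989 host genes, 5.12% of the 19304 protein-coding genes longer than 2 kb, which alone can hold such a region. In 9 regions host genes overlap, and each was counted. Of the hosts, 883 held 1 region, 89 held 2, 16 held 3, and Cwc22 held 21. Long genes were hosts more often: 1.70% of genes of 2 to 10 kb, 4.07% of 10 to 30 kb, 7.15% of 30 to 100 kb and 11.2% of those over 100 kb. Per length the order was the reverse, with 4.92, 2.62, 1.63 and 0.523 regions per Mb of inner span. The median span was 46.62 kb in hosts and 21.34 kb in all genes over 2 kb. A MYC region also lay at an end of the gene itself in 192 hosts (19.4%), and in 2936 of the other 18315 genes (16.0%). Chromosome X held 6 of the regions, 0.535% of them, with 4.45% of the inner sequence. Gene-end regions were sparse there as well, with 0.649% of the regions and 4.56% of the sequence.

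Lists of genes of known function were counted against the 5.12% of all genes over 2 kb that host a region, and the 2.57% that host one found in at least 2 libraries. These counts are descriptions without a test, and median spans are given since longer genes offer more room. In ribosome biogenesis 5 of 30 genes were hosts (16.7%, median span 15.4 kb), and in all 5 the region was found in at least 2 libraries. They were Npm1, which encodes the nucleolar chaperone nucleophosmin, with a region in 8 libraries, Nat10, an RNA acetyltransferase, and Noc2l with 5, Gnl3 (nucleostemin) with 4, and Ubtf, the RNA polymerase I factor, with 2. Translation factors had 4 of 22 hosts (18.2%, 15.0 kb), again each in at least 2 libraries. Eif5a, the hypusine-bearing elongation factor, led with 7 libraries, followed by Eif4ebp1, the inhibitor of the cap-binding protein, with 4, the cap-binding Eif4e with 3 and Eif4g3 with 2. A MYC region at an end of the gene was found in 24 of 30 and 18 of 22 genes, hosts included, and in 3128 of the 19304 genes over 2 kb.

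The MYC network, the family of dimer partners and rivals of MYC, had 4 hosts of 14 (28.6%, 18.6 kb). Mnt, a MAX-binding repressor, held 3 regions, and the most frequent had the authors' fold over background of 9.65 in Homo replicate 3, of 6.32, 10.6 and 5.01 in Het replicates 1 to 3 and of 6.59 and 14.6 in WT replicates 2 and 3. It had no peak in Homo replicates 1 and 2 or WT replicate 1. Mlxipl, the carbohydrate-responsive factor of liver, had a region in 4 libraries, Mga in 2 and Mxi1 in 1. The circadian list, chosen for genes with E-boxes, had 6 hosts of 17 (35.3%, 35.1 kb): Dbp in 6 libraries, Nr1d1 in 4, Per1 and Tef in 3 each, and Hlf and Per2 in 1 each. Since MYC binds E-boxes, that list is not independent of MYC.

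Glycolysis and lactate transport had 5 hosts of 24 (20.8%, 21.3 kb). The region of Ldha, which makes lactate from pyruvate, had folds of 4.41 in Homo replicate 3, of 7.27 and 19.5 in Het replicates 1 and 2 and of 13.5 and 11.5 in WT replicates 2 and 3. It lay at the internal start printed above, and no peak was listed there in the other 4 libraries. Pfkfb3, which makes the activator of phosphofructokinase, was also found in 5 libraries, the enolase genes Eno1 and Eno3 in 3 and 2, and the liver glucose transporter gene Slc2a2 in 1.

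SWI/SNF subunits had 7 hosts of 26 (26.9%, 31.6 kb), 4 of them in at least 2 libraries. These were Dpf1 in 4, Ss18 in 3, and Arid1a and Dpf3 in 2. The region in Arid1a itself (chr4:133754257-133754717, mm10) lay 2347.5 bp inside the 5′ end and 436.5 bp from a listed internal start. It had a fold of 7.74 in Het replicate 2 and of 10.8 in WT replicate 3, and no peak in any other library of the 3 genotypes. Of all 1121 regions inside genes, 83 had a peak in any Homo library. All 3 genotypes carry a floxed Arid1a allele, and the sources used here do not say whether this site lies in the floxed part. Arid1b, Pbrm1 and the ATPase gene Smarca2 held regions found in 1 library each.

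Of the 6 liver identity genes that were hosts, 4 had their region in a single library. Hepatocyte transcription factors had 3 hosts of 23 (13.0%, 46.5 kb), of which the xenobiotic receptor gene Nr1i2 was found in 3 libraries and the glucocorticoid receptor gene Nr3c1 in 1. Liver enzymes and plasma proteins had 3 of 40 (7.50%, 13.6 kb): Acaca, the acetyl-CoA carboxylase of fat synthesis, in 3 libraries, Acacb in 1 and Gys2 in 1. Alb and Myc had no region inside or at an end. Cebpb had one at an end, and its span is too short to hold one inside. Cell cycle genes had 2 of 30 (6.67%, 15.8 kb), Cdk6 in 2 libraries and E2f2 in 1. Growth factor signalling had 5 of 30 (16.7%, 66.0 kb) and developmental signalling (WNT, Notch, Hippo and TGF-beta) 2 of 26 (7.69%, 71.6 kb). Each of these 7 genes, such as Insr, Fgfr2 and Jag1, was found in 1 library. No host was found among 22 genes of epithelial-mesenchymal transition and metastasis (16.8 kb). The same held for 8 cholangiocyte (10.5 kb), 15 immune (11.6 kb) and 17 endothelial and stellate cell markers (38.2 kb). These lists are short against the 5.12% of all genes, so a count of 0 says little.

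Of the regions, 518 (46.2%) were found in at least 2 libraries, compared with 49.3% of all regions and 51.3% of those at gene ends. Of the other 603, 450 (74.6%) came from WT replicate 3, the longest list, and 0 from any Homo library or WT replicate 1. At the other end of the scale 59 regions (5.26%) were found in at least 6 libraries, compared with 4.36% of all regions and 3.32% at gene ends. In all 9 libraries 6 of 1121 were found, compared with 3 of 2926 at gene ends. These counts were not made apart for regions between genes or at noncoding gene ends. They therefore do not set regions inside genes apart from those. The genes behind the frequent regions are given next, in the order of the number of libraries. Folds are the authors' own values for a peak against the background of its library, so they describe a peak within its list, and folds of different lists were not tested against each other.

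The region in Uqcrc1, a core subunit gene of mitochondrial complex III, lay 6148 bp from the nearest end (chr9:108943205-108944065). Its folds were 8.43, 11.5 and 13.4 in Homo replicates 1 to 3, 27.4, 24.5 and 23.4 in Het and 22.4, 33.5 and 34.4 in WT. The reads at the summit, solved from the authors' fold and p-value, numbered 37, 56 and 88 in Homo, 201, 102 and 106 in Het and 151, 172 and 154 in WT. It was among the 10 highest peaks of the list in every library except Homo replicate 1, where it stood at rank 23. All 3 Homo values lay below all Het and WT values.

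The region in Efcab7, a gene of a ciliary protein complex, had folds of 4.11, 22.4 and 14.2 in Homo, 25.0, 8.70 and 16.3 in Het and 15.6, 28.8 and 10.2 in WT. It was the highest peak of the list in Homo replicate 2 and stood at rank 106 of 112 in Homo replicate 1, so the libraries differed as much within a genotype as between them. In Gne, the key enzyme gene of sialic acid synthesis, the folds were 11.9, 9.31 and 12.7 in Homo, 17.6, 17.2 and 8.16 in Het and 9.81, 17.1 and 13.4 in WT, and the genotypes overlapped. Gne held 2 more regions, found in 7 and 4 libraries, all 3 between 11127.5 and 18368 bp from the nearest end.

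Supv3l1, which encodes a mitochondrial RNA helicase, had its region 1031 bp from the nearest end and 453 bp from a listed start. Its folds were 8.92, 7.97 and 15.5 in Homo, 10.4, 26.7 and 4.87 in Het and 5.50, 7.71 and 14.8 in WT. In Ift52, a gene of transport along cilia, they were 10.3, 6.61 and 4.22 in Homo, 16.1, 11.1 and 4.95 in Het and 7.26, 20.7 and 15.7 in WT. In Dazap1, an RNA-binding protein gene whose internal start is printed above, they were 6.58, 7.54 and 6.41 in Homo, 16.4, 13.3 and 7.07 in Het and 5.29, 13.5 and 18.2 in WT. In these 3 regions too the values of the genotypes overlapped.

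Among the 13 regions found in 8 libraries, 10 lacked a peak in Homo replicate 1 and had one in every other library. The highest median folds were those of Tube1, the epsilon-tubulin gene, and Mns1, a gene of the axoneme (23.3 and 23.1). Tube1 had folds of 12.5 and 18.5 in Homo replicates 2 and 3, 30.2, 23.2 and 23.4 in Het and 13.9, 40.6 and 34.7 in WT. Mns1 had 14.4 and 10.2 in Homo replicates 2 and 3, 21.5, 17.8 and 32.1 in Het and 26.4, 43.2 and 24.7 in WT. Tube1 was the highest peak in WT replicate 3, and Mns1 the highest in WT replicate 2 and in Het replicate 3. The others were Ust (a sulfotransferase of glycosaminoglycans), Tex2, Bbs9 (a subunit of the ciliary BBSome), Syne1 (nesprin at the nuclear envelope), Nlrp4c, Slc44a5, Runx1 (a transcription factor of blood development) and Ino80 (the ATPase of another remodelling complex).

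Npm1 and Anp32b, both encoding histone-binding proteins, lacked a peak in Homo replicate 2 only. The folds of Npm1 were 4.09 and 9.84 in Homo replicates 1 and 3, 18.3, 13.5 and 5.10 in Het and 7.26, 16.8 and 18.1 in WT. Commd10 lacked one in WT replicate 1 only. Sdhaf3, which encodes an assembly factor of succinate dehydrogenase, was found in 7 libraries. Over the 20 regions found in the most libraries, 20 had a peak in all 3 Het libraries, 19 in all 3 WT libraries and 7 in all 3 Homo libraries. Homo replicate 1 lacked 11 of the 20, Homo replicate 2 lacked 2 and Homo replicate 3 lacked 1. Of these 20, 14 lay more than 5 kb from every gene end. Of the 19 on chromosomes with listed starts, 3 lay within 1 kb of one. Among these 19, the hosts Efcab7 and Npm1 had no listed start of their own.

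Eif5a and Cox5a were also found in 7 libraries. The region of Eif5a lay 53 bp from a listed start, with folds of 5.98 and 9.28 in Homo replicates 1 and 3, 20.0, 15.6 and 7.37 in Het and 14.0 and 18.3 in WT replicates 2 and 3. That of Cox5a, a cytochrome c oxidase subunit gene, had 9.37 and 8.53 in Homo replicates 1 and 3, 13.1, 17.7 and 7.54 in Het and 13.9 and 16.9 in WT replicates 2 and 3. Neither had a peak in Homo replicate 2 or WT replicate 1.

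**Figure D3:**
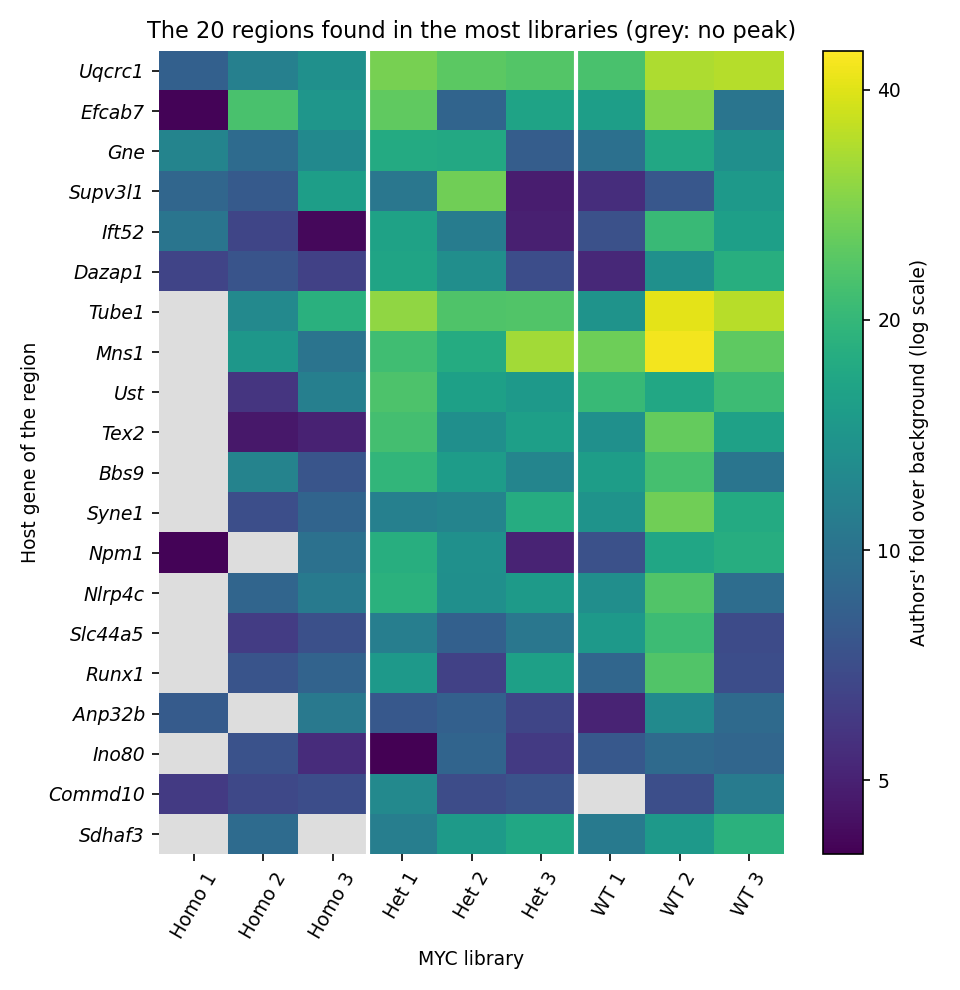
Authors' fold over background (colour, log scale) of the 20 regions inside genes found in the most libraries (rows, by host gene) in the 9 MYC libraries (columns, Homo, Het, WT). Grey cells have no peak: 11 of the 20 are grey in Homo replicate 1, and Uqcrc1, Tube1 and Mns1 have the highest median folds.

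Whether the number of MYC sites inside genes differs with the dose of Arid1a was asked per library. The Homo lists held 28, 23 and 73 peaks inside genes, the Het lists 399, 418 and 125, and the WT lists 39, 379 and 933. The mean was 41.3 ± 27.5 in Homo, 314 ± 164 in Het and 450.3 ± 451.2 in WT (SD, n = 3 each). All Homo values lay below all Het values, while WT replicate 1 fell among the Homo libraries. On the log10 scale Homo minus Het was −0.88 and Homo minus WT −0.82, and Het minus WT was 0.06. By two-sided exact permutation these gave p = 0.1, 0.2 and 0.8, and adjusted p = 0.267, 0.267 and 0.8. The smallest p that 3 libraries against 3 allow is 0.1. The exact permutation test over the 3 genotypes gave p = 0.154 (adjusted p = 0.267), with 52.3% of the variance between genotypes. These libraries also differed in depth and list length, with inputs of 3.37 to 6.27 reads per kb and whole lists of 51 to 4291 peaks. The depth of the MYC libraries ran from 7.80 reads per kb in Het replicate 2 to 15.2 in Het replicate 1. It was 14.8 in WT replicate 1, so it did not follow list length. After the data were seen 2 settings were added, neither of which set the MYC libraries to an equal depth. With a −log10 p of at least 10 Homo minus Het was −0.84 and Homo minus WT −0.80, and with the same limit after thinning by calculation to the depth of the shallowest input they were −0.76 and −0.55 (exact permutation p = 0.1 and 0.2 in both settings). Nothing in the labels says that the libraries of a genotype came from separate animals and not from the same one, so the p-values cover the spread of these samples, part of which may be technical.

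The share of a library's peaks inside genes varied less. It was 25.0%, 45.1% and 24.1% in Homo, 23.3%, 22.4% and 33.1% in Het and 42.4%, 24.2% and 21.7% in WT, with means of 31.4 ± 11.9%, 26.3 ± 5.9% and 29.4 ± 11.3% (SD, n = 3 each). The genotypes overlapped. The differences were 5.15 percentage points for Homo minus Het, 1.96 for Homo minus WT and −3.20 for Het minus WT, and the smallest exact permutation p among the pairs was 0.5 (adjusted p = 0.721). Homo replicate 2 and WT replicate 1 had the highest shares, with exact 95% intervals of 31.1% to 59.7% and 32.1% to 53.1% for counting error, and the fewest peaks at gene ends, 19.6% and 15.2% of their lists against 43.7% to 64.3% in the other 7 libraries. Without both, Homo minus Het was −1.70 percentage points and Het minus WT 3.28 (exact permutation p = 1.0 and 0.8).

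**Figure D4:**
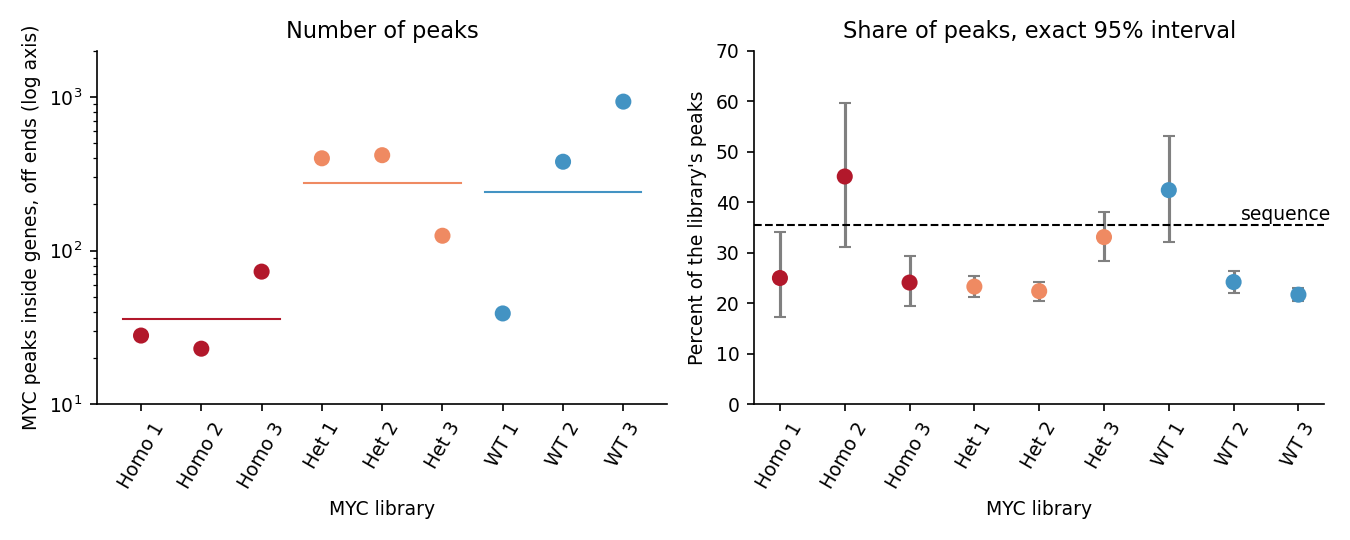
Left, number of MYC peaks inside genes and off ends (y axis, log scale) in each of the 9 libraries, with the mean of the log values per genotype as a line. Right, the same peaks as percent of all peaks of the library with exact 95% intervals, and the 35.5% of sequence of that kind dashed. Homo libraries have 23 to 73 such peaks, and Homo replicate 2 and WT replicate 1 have the highest shares.

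The regions of these 2 libraries were largely shared with each other and with the longer lists. Of the 22 regions of Homo replicate 2, 17 (77.3%) were among the 35 of WT replicate 1 (48.6% of those), and all 22 had a peak in Het replicates 1 and 2 and WT replicates 2 and 3. They were high peaks there: the regions of Homo replicate 2 had a median fold of 16.2 in Het replicate 1 and of 18.9 in WT replicate 2, compared with 7.02 and 6.87 for the other regions inside genes in the same lists. The 28 regions of Homo replicate 1 overlapped less with them, sharing 8 with Homo replicate 2 and 8 with WT replicate 1, but 26 with Het replicate 1. The 72 regions of Homo replicate 3 shared 68 with Het replicate 1 and 71 with WT replicate 3. Thus the Homo lists contained almost no region inside genes that the long Het and WT lists lacked.

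To be counted for 1 genotype and not another, a region needed a peak in 2 or 3 libraries of the first and in none of the second. No region inside genes was counted for Homo and not Het, or for Homo and not WT (0 of 1121 each, with 0.0% of all regions). In the other direction 186 regions (16.6%) were counted for Het and not Homo, compared with 18.1% of all regions, and 225 (20.1%) for WT and not Homo, compared with 22.0%. For Het and not WT there were 11 (0.981%, compared with 0.607% of all), and for WT and not Het 37 (3.30%, compared with 4.13%). Regions counted for both genotypes numbered 31 for Homo and Het (2.77%, compared with 2.01%), 31 for Homo and WT (2.77%, compared with 2.03%) and 185 for Het and WT (16.5%, compared with 18.1%). These shares stood near those of all regions. Whole lists held 112, 51 and 303 peaks in Homo, 1713, 1869 and 378 in Het and 92, 1567 and 4291 in WT. Short lists leave few regions to count for Homo alone, so the 2 directions are not alike. With only the 51 peaks of highest fold kept in each list, 2 regions were counted for Homo and not Het and 4 the other way. For Homo and not WT there were then 3, and 4 the other way. With 3 libraries on each side, no exact test of a single region can pass 0.05. Leaving out 1 library means that both remaining ones must have the peak: without Het replicate 1 or 2 the count for Het and not Homo was 36 or 44, and without WT replicate 2 or 3 that for WT and not Homo was 15 in either case.

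Among the regions absent from Homo, 10 had a peak in all 6 Het and WT libraries. That count was not made over all regions, so it does not set regions inside genes apart. The 5 of these 10 with the highest median fold are described here, for both comparisons, which share the Homo libraries. The region in Moxd1, a monooxygenase gene, had folds of 21.1, 17.9 and 12.5 in Het and 17.4, 26.8 and 23.8 in WT. In Gnao1, the gene of a G protein alpha subunit of nerve cells, they were 15.6, 10.6 and 11.1 in Het and 11.6, 20.3 and 9.49 in WT. In Slc2a13, a transporter gene for myo-inositol, they were 5.68, 12.7 and 9.06 in Het and 11.6, 19.4 and 9.98 in WT. Csmd1 and Bnc2 followed with median folds of 10.5 and 9.99. The distances of these 5 from the nearest gene end ran from 7164.5 bp in Slc2a13 to 68190.5 bp in Bnc2. The other 5, in Grik4, Wdr60, Dtd1, Nova1 and at another place in Nlrp4c than the region above, had median folds of 6.28 to 8.84.

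Regions counted for Het and not WT included those in B4galt6, Apaf1 (the scaffold of the apoptosome), Sec23ip, Arih1 and Zfp827. Each had its peaks in Het replicates 1 and 2, with folds of 6.59 to 10.3. Those counted for WT and not Het included Gabbr2, Zfp407, Zc3h14, Anp32a and Tpst1, each with peaks in WT replicates 2 and 3. Gabbr2, a GABA receptor gene, also had a peak in Homo replicate 3, with a fold of 10.6 there, 8.14 in WT replicate 2 and 7.42 in WT replicate 3. The region of Tpst1 lay 78.5 bp from a listed start and that of Arih1 367 bp.

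Within a list, peaks inside genes had a slightly higher fold than peaks at gene ends, but not more reads at the summit. The median fold inside genes was 6.86, 8.42 and 7.52 in Homo, 7.09, 7.46 and 6.85 in Het and 8.83, 7.03 and 6.94 in WT. At gene ends it was 6.80, 7.51 and 6.47 in Homo, 6.41, 7.03 and 6.50 in Het and 6.64, 6.58 and 6.72 in WT. The difference in median log2 fold was positive in 9 of 9 libraries, lowest at 0.01 in Homo replicate 1 and highest at 0.41 in WT replicate 1, with a mean of 0.14 ± 0.12 (SD, n = 9), and the two-sided exact sign-flip permutation test gave p = 0.00391, the smallest it allows with 9 libraries. Against peaks between genes the mean difference was −0.11 (exact sign-flip permutation p = 0.00781), so folds inside genes were lower than those between genes. The lists share regions, so the 9 differences are not fully independent. The gene-end medians rest on 14 peaks in WT replicate 1 and on 10 in Homo replicate 2. Without WT replicate 1 the difference from gene ends was 0.11, and without both that library and Homo replicate 2 it was 0.10 (exact sign-flip permutation p = 0.00781 and 0.0156).

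**Figure D5:**
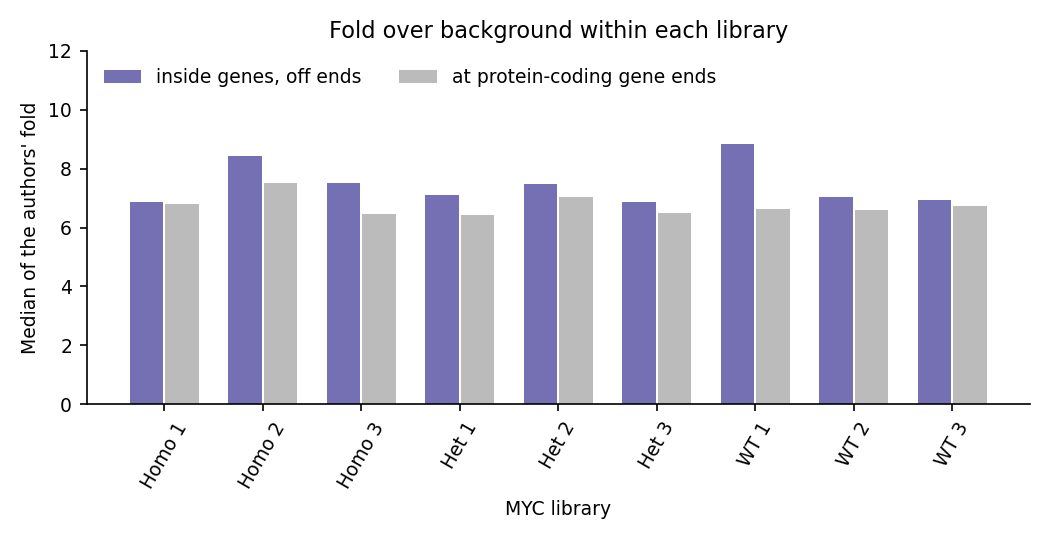
Median of the authors' fold over background (y axis, from 0) of peaks inside genes and off ends and of peaks at protein-coding gene ends, side by side within each of the 9 MYC libraries. The bar inside genes is the higher in every library, by the most in WT replicate 1 (8.83 and 6.64).

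At the top of the lists the share inside genes was higher than over the whole list in 4 libraries and lower in 4. Among the 51 highest peaks of each list, the number inside genes was 11, 23 and 17 in Homo, 19, 14 and 16 in Het and 21, 22 and 10 in WT. In Homo replicate 3, Het replicates 1 and 2 and WT replicate 2 this came to 33.3%, 37.3%, 27.5% and 43.1%, compared with 24.1%, 23.3%, 22.4% and 24.2% of the whole lists. In Homo replicate 1, Het replicate 3, WT replicate 1 and WT replicate 3 it was the lower of the 2 shares, and in Homo replicate 2 the 51 peaks are the whole list.

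Peaks inside genes were not found in another library more often than gene-end peaks of the same list. Of the peaks inside genes, 100%, 100% and 100% had an overlapping peak in another library in Homo, 92.2%, 88.0% and 80.8% in Het and 100%, 87.3% and 51.8% in WT. The difference from gene ends was below 0 in 5 libraries, 0 in 3 and above 0 in 1, with a mean of −4.23 percentage points (exact sign-flip permutation p = 0.0625). The libraries share each other's lists, so the 9 differences are not fully independent. In Het replicate 3 the difference was −18.6 points, and without the regions in Cwc22 the mean over libraries was −2.42 (exact sign-flip permutation p = 0.0625). Without WT replicate 3 the mean was −1.46 and without Het replicate 3 it was −2.48 (exact sign-flip permutation p = 0.719 and 0.125).

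Cwc22, a splicing factor gene of 65198 bp on chromosome 2, stood apart as a host. All 21 of its regions were found in Het replicate 3 and in no other library, and they made up 17.6% of the 119 regions inside genes of that library. Their folds ran from 5.06 to 8.44, and the reads at the summits, where solved, from 20 to 30. Het replicate 3 had 22 peaks with a summit in the Cwc22 span, and the other 8 lists together had 3. Of the 24 regions inside genes found in Het replicate 3 only, 21 were thus in this 1 gene. After Cwc22 the hosts with the most regions held 3 each, among them Gne, Mnt, Mtss1, Rere, Adk, Ece1, Fdft1 (squalene synthase) and Mical3. In Gne, Mnt and Mtss1 all 3 regions were found in at least 2 libraries.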

How the data were processed

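MYC binding in frozen liver tumours was measured by ChIP-seq, with 3 MYC libraries and 3 inputs per genotype. The inputs have no list of their own here. The submitters' processing notes name Bowtie2 2.2.3, Picard, HOMER and MACS2 2.0.10.20131216, with mm10 as the build, and give no peak threshold. Each library has its own deposited list, so peaks were not pooled. For each peak the authors' list gives a fold over background (a ratio), −log10 values of p and q, an integer score, which was not used, and the summit.

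Peaks that overlap by at least 1 bp were merged. Gene spans came from RefSeq (GRCm38.p6, the assembly of mm10). Strand and starts came from RefSeq windows of 300 bases, which cover 79.9% of protein-coding genes and no gene of chromosome 18. Exons were not used here. Without a genome, the E-box share planned for windows around summits was replaced by the start windows that hold a summit. The deposited fold and −log10 p were solved together for the reads at the summit (99.01% of peaks had 1 solution), which also gave an input depth of 3.37 to 6.27 reads per kb. Intervals are exact (Clopper-Pearson, 95%) and cover counting error only.

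Peak numbers (log10) and shares were compared between genotypes by two-sided exact permutation over libraries (10 distinct splits for a pair, 280 for 3 genotypes), adjusted by Benjamini-Hochberg over the 4 tests of a result. Differences within a library were tested by exact sign-flips (512). The code was tested on simulated data. Same-numbered libraries were not paired: the correlation of their deviations ran from −0.209 to 0.0875. Members, gene lists and tests were chosen with earlier results of these data known. Regions were named by rule: the 20 found in the most libraries, 5 per pair of genotypes and direction, at most 3 hosts of each list, the 10 genes with the most regions (ties in alphabetical order), the 3 nearest to and farthest from an end, and Arid1a, Myc, Alb and Cebpb. Further hosts of a list are named where its count is 7 or fewer, after their values were seen. Some hosts that these rules name are not reported here. Alternatives varied the peak limits, the distance, the merging, the summit, the host biotype and the libraries. Python 3.11.15, NumPy, SciPy and pandas were used.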

Additional observations from a re-analysis of the deposited data

Results flagged for a closer look

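The median distance from a region to the nearest gene end was 15400 bp in WT replicate 1, far above the other 8 libraries, which lay between 4278 and 9734 bp. Chance flags about 1 in 20 such sets of 9 values. The same rule was also run on the fold difference, the found-elsewhere difference, the 5′ share and the share near listed starts. None of those was flagged, and a chance flag somewhere among all of them is likelier than 1 in 20. WT replicate 1 is also the library with the fewest gene-end peaks (15.2% of its list) and with 8.82% of its regions within 1 kb of a listed start, compared with 19.0% to 31.6% in the others.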

How the results depend on the processing

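The tests between genotypes passed no adjusted threshold in any of the settings run. The lowest adjusted exact permutation p over all settings was 0.114 for the number of peaks and 0.7 for the share. Homo stayed below Het and below WT in the number of peaks in all 22 settings, with Homo minus Het between −1.05 and −0.756 and Homo minus WT between −1.22 and −0.527 on the log10 scale. Het minus WT had no stable sign: it was −0.00282 beyond 5 kb from every end, −0.335 without WT replicate 1, with or without Homo replicate 2, and between −0.335 and 0.358 with 1 library left out. The shares changed sign too. With 1 library left out Homo minus Het ran from −1.70 to 8.81 percentage points, Homo minus WT from −4.89 to 8.43 and Het minus WT from −6.87 to 3.28, and without both libraries of low gene-end share Homo minus Het was −1.70 and Het minus WT 3.28. With the replicate block, labels permuted within a replicate number, Homo minus Het in the number of peaks gave an exact p of 0.25, the smallest it allows, and changed no call.

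The distance that defines an end changed counts by construction. Beyond 250 bp there were 1914 regions (40.1% of regions, in 37.2% of sequence), with 342 counted for Het and not Homo, 412 for WT and not Homo, 69 for WT and not Het, and 77 list members as hosts. Beyond 5 kb there were 599 (12.5%, in 28.8% of sequence), with 84, 113 and 23 in the same order, 5 for Het and not WT, and 20 list members. The 5′ share was 77.2% and 58.7% at these distances. Hosts of any biotype gave 25.7% of regions in 42.1% of sequence. A −log10 q of at least 5, and, added after seeing the data, a −log10 p of at least 10, each left 7 for Het and not WT.

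The −log10 p limit of 10 alone left 868 regions, with 152 for Het and not Homo, 177 for WT and not Homo, 35 for WT and not Het, 40 list members as hosts, and the E-box in 31.8% of windows. The same limit after thinning by calculation to the shallowest input (added after seeing the data) left 509 regions, with 96, 52, 6 and 25 in the same order, and the E-box in 35.2% of windows. Homo minus Het was then −0.756 and Homo minus WT −0.553. When only the 51 peaks with the highest fold in each list were kept, there were 2 for Homo and not Het, 4 for Het and not Homo, 3 for Homo and not WT, 4 for WT and not Homo, 2 for Het and not WT and 2 for WT and not Het. With 1 library left out, regions numbered 675 to 1121, those for Het and not Homo 36 to 221, for WT and not Homo 15 to 262, for Het and not WT 0 to 71 and for WT and not Het 0 to 77, and the E-box share ran from 24.3% to 36.7%.

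The fold difference from gene ends was positive in 23 of 24 settings and past the threshold in all 24; the exception was the comparison with peaks between genes (−0.107 on the log2 scale; the share of peaks found in another library then differed by 0.695 percentage points). The cause of these changes was not tested beyond what the settings themselves fix.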
